A study of Mus musculus with 12 samples.

Results

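Satellite cells, the stem cells of skeletal muscle, were examined here for the genes that keep reactive oxygen species and electrophiles in check: the glutathione, thioredoxin and antioxidant genes. Members were the protein-coding genes whose symbols belong to the glutathione S-transferase families (Gsta, Gstk, Gstm, Gsto, Gstp, Gstt), the glutathione peroxidases (Gpx), the peroxiredoxins (Prdx), the thioredoxins, the thioredoxin reductases and the superoxide dismutases, together with *Gclc*, *Gclm*, *Gss*, *Gsr*, *Nqo1*, *Hmox1*, *Cat*, *Srxn1*, *Nfe2l2* and *Keap1*. The rule used gene symbols and biotype only, and no measured value. It gave 51 of the 25093 genes in the count table, after 3 pseudogenes with matching symbols were left out.

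Cells reduce hydrogen peroxide and lipid peroxides by means of a pair of thiol systems that both draw on NADPH. In the first, glutathione is made by glutamate-cysteine ligase and glutathione synthetase, is oxidised by glutathione peroxidases or joined to electrophiles by glutathione S-transferases, and is reduced again by glutathione reductase. In the second, peroxiredoxins reduce peroxides and are recycled by thioredoxin and thioredoxin reductase. Superoxide dismutases and catalase act upstream of or beside both, and the transcription factor NRF2 (gene *Nfe2l2*), held in check by KEAP1, drives many of these genes through antioxidant response elements.

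Satellite cells came from 3- to 4-month-old mice of mixed genetic background. Controls were Pax7-CreERT2/+;Gli3+/+;R26R-YFP mice (Gli3+/+), and mutants were Pax7-CreERT2/+;Gli3fl/fl;R26R-YFP mice (Gli3Δ/Δ), in which the *Pax7*-driven Cre removes 1 exon of *Gli3* from satellite cells. Both genotypes carried the Cre and the YFP reporter, and both were given tamoxifen. Quiescent satellite cells (QSCs; sorted as α7-INTEGRIN+ CD34+) were isolated from all hindlimb muscles, and each of the 3 libraries per genotype pooled 2 to 3 mice. Activated satellite cells (ASCs; sorted as α7-INTEGRIN+ VCAM1+) were isolated from the tibialis anterior and gastrocnemius 3 days after cardiotoxin injury, with 1 mouse per library. CD31, CD45, SCA1 and CD11b were used to exclude other cells in both sorts. The 6 ASC libraries were used as 1 group, named ASC library 1 to 6, because the labels do not tell which column of the count table belongs to which genotype. Genotypes were therefore compared in QSCs only. State, injury, muscle, gate and pooling of mice differ together between ASCs and QSCs and cannot be told apart.

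Library totals ranged from 36886130 to 65750131 estimated counts, and every level below is in CPM, counts scaled to a common library size after TMM normalization. Of the 12 satellite cell markers, all were detected, with a summed level of 7415 to 9115 CPM in QSCs and 1843 to 2921 CPM in ASCs. In ASCs 10 of them were called lower and 2 higher. *Myod1* went from 112–159 CPM in QSCs to 340–565 CPM in ASCs, and *Itga7* from 369–535 to 653–980 CPM. *Gli3* itself lay between 6.27 and 11.3 CPM in all 6 QSC libraries (log2 fold change −0.22 ± 0.22 SE, adjusted p = 0.92), and a count over the whole gene does not test the removal of 1 exon. Of the ASC libraries, ASC library 6 stood apart. Its summed macrophage markers reached 5256 CPM against 253 to 842 CPM in the other 5, and its Schwann cell markers 860 against 20.9 to 77.8 CPM. Mural cell markers reached 1017 against 103 to 442 CPM, and endothelial markers 420 against 60.6 to 158 CPM. Its lymphocyte and erythroid sums were also the highest of the ASC libraries. So was its neutrophil sum (54.1 CPM), but the genes of that list differed. *Csf3r* (29.6 CPM) and the scarce *Ly6g* were highest in ASC library 6. *S100a8*, *S100a9* and *Mpo* were lower there (10.4, 13.9 and 0.0777 CPM) than in ASC library 4 (17.3, 18.6 and 1.7 CPM). Its fibro-adipogenic markers reached 3933 against 511 to 823 CPM, but this sum was 2406 to 4092 CPM in QSCs. Of it, *Col3a1* made up 3482 CPM in ASC library 6 and 1935 to 3494 CPM in QSCs. Of the 6 fibro-adipogenic genes, 3 were called higher and 2 lower in ASCs. Genes induced by tissue dissociation summed to between 40970 and 59582 CPM in QSCs and between 1774 and 4932 CPM in ASCs. The part of dissociation in the differences between the states was not tested.

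Of the 51 members, 7 encode selenoproteins, in which a TGA codon inside the reading frame is read as selenocysteine, the residue that carries out the catalysis. The codon is shown here because it is a feature that the members of opposite behaviour, *Gpx1* and *Gpx3*, have in common. Each line gives coding sequence from the GENCODE vM21 transcripts with the selenocysteine codon in capitals (GRCm38).
Gpx1 (chr9:108339451-108339453, plus strand): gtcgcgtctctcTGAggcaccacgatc
Gpx3 (chr11:54907256-54907258, plus strand): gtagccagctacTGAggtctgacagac
Gpx4 (chr10:80054737-80054739, plus strand): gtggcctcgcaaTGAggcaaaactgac
Txnrd1 (chr10:82896037-82896039, plus strand): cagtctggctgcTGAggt
Txnrd2 (chr16:18477772-18477774, plus strand): gtgactggttgcTGAggc
In the peroxidases the codon lies in the first part or the middle of the reading frame (codon 47 of 201 in *Gpx1* and codon 73 of 226 in *Gpx3*), whereas in *Txnrd1* it is codon 612 of 613, the last but 1.

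The core of the antioxidant response element, TGACNNNGC, was searched on both strands of the RefSeq promoters (GRCm38.p6, 250 bases before to 50 after each start). It was found in 9 of the 44 members with a promoter sequence (20.5%) and in 2094 of 12792 protein-coding genes (16.4%). The stretches below hold the matched letters in capitals, for 3 members that rose in ASCs, for 1 that fell and for *Nfe2l2*. A match is a description of the letters only, and binding was not measured.
Prdx1 (chr4:116685450-116685490, plus strand): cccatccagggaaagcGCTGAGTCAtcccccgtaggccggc
Gclm (chr3:122245407-122245447, plus strand): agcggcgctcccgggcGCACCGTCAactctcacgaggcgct
Txnrd1 (chr10:82859098-82859138, plus strand): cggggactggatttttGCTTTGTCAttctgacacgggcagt
Gstm7 (chr3:107931719-107931759, minus strand): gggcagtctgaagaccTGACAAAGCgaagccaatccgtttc
Nfe2l2 (chr2:75704879-75704913, minus strand): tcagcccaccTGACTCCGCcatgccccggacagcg
The other 4 members with a match were *Gsta3*, *Gstm5*, *Sod1* and *Srxn1*. Of all 9, 3 rose, 2 fell and 4 did not pass the test between the states, so the matched letters occurred in members of every behaviour.

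In QSCs, 1 gene accounted for most of the RNA of the whole system. *Gpx3* (ENSMUSG00000018339.11, chromosome 11, 54902453 to 54910377), which encodes the secreted glutathione peroxidase, was at 3268 ± 329 CPM in Gli3+/+ QSCs and 3368 ± 282 CPM in Gli3Δ/Δ QSCs (SD, n = 3 libraries each). Per kilobase of exon it had a mean level of 1830 CPM per kb, the 17th highest of 25080 genes with a known exon length. It took between 63.9% and 68.3% of the summed CPM per kb of the 51 members in every QSC library. The next members on that scale were *Gstm1* at 283, *Prdx1* at 53, *Gstm2* at 46.3 and *Gstp1* at 42.1 CPM per kb. In ASCs the order was another, with *Txn1* at 393, *Gpx1* at 153, *Prdx1* at 148 and *Gstp1* at 112 CPM per kb, and with *Gpx3* at 51 CPM per kb, or 1.29% to 4.75% of the sum. The exon length takes all annotated exons of a gene together, so genes with long exons that are little used rank lower. By CPM alone, *Sod1* (141) followed *Prdx1* (161) in QSCs, and *Prdx1* (451) was above *Txn1* (413) in ASCs. The summed level of all members was 2540 to 3014 CPM per kb in QSCs and 1563 to 1780 CPM per kb in ASCs. As *Gpx3* made up most of this sum in QSCs, it does not give the direction of the other members. The peroxiredoxins and sulfiredoxin summed to 139 to 203 CPM per kb in QSCs and 380 to 481 in ASCs. The thioredoxins and reductases summed to 66.6 to 85 and 323 to 540 CPM per kb. The sums of the S-transferases and of the peroxidases, which include *Gpx3*, were lower in ASCs.

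Between ASCs and QSCs, 35 of the 51 members changed, 24 upwards and 11 downwards (edgeR's quasi-likelihood test; called where the adjusted p was under 0.05 and the level differed by at least 1.2-fold). As 58.9% of all genes tested and 67.5% of the protein-coding genes were called in the same comparison, the 68.6% called among the members is a share near the background. Calls upwards made up 47.1% of the members against 31.1% of all genes, and calls downwards 21.6% against 27.8%. Of the members, 20 rose and 11 fell by at least 2-fold, against 21.9% and 19.7% of all genes. The median log2 fold change was 0.38 over the members and 0.01 over all genes. The 2 states did not overlap in 28 of the 51 members (54.9%), against 39.6% of all genes. These counts include *Gsta1*, *Gsta2*, *Gstp3* and *Gstm3*, which are in the table through the state where they are higher. The calls of such genes are a description only. Of the 43 members with a mean of at least 1 CPM in either state, 30 were called, 21 upwards and 9 downwards. Among these 43, 17 rose and 9 fell by at least 2-fold, and the states did not overlap in 25 (58.1%). All members are protein-coding, and of the protein-coding genes 39.5% were called upwards and 27.9% downwards, their median log2 fold change was 0.21, and 48.2% did not overlap. A lower level in a sorted population can reflect fewer cells that hold the RNA or less RNA per cell, and these cannot be told apart in bulk libraries.

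**Figure D1:**
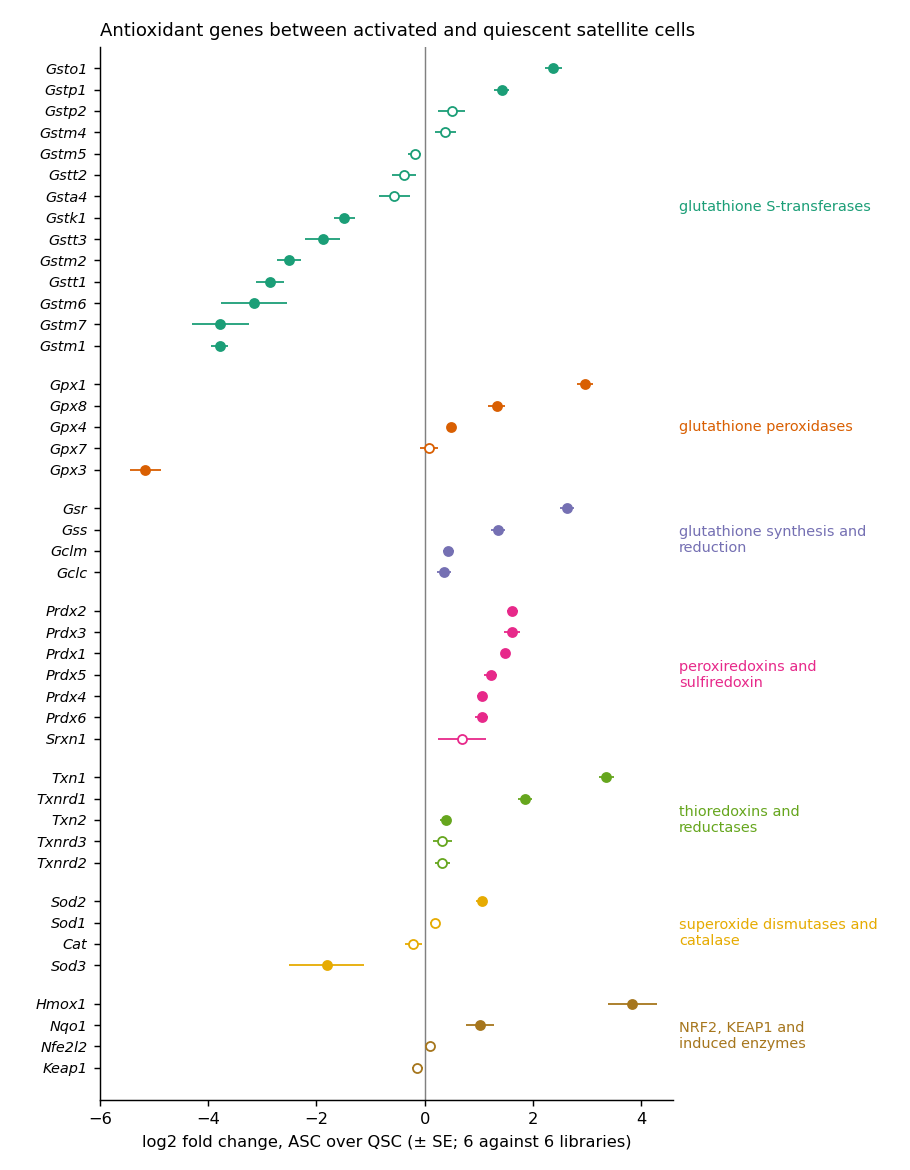
Log2 fold change of ASCs over QSCs (x axis, ± SE) for the 43 members with a mean of at least 1 CPM in either state, sorted within each role. Filled points passed the test and open points did not, and the other 8 members, below 1 CPM in both states, are left out. Every peroxiredoxin lies to the right of 0, while the glutathione S-transferases run from 2.38 for *Gsto1* to −3.79 for *Gstm1*.

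Among the 4 genes of glutathione synthesis and reduction, all rose in ASCs. *Gsr* (ENSMUSG00000031584.16, chromosome 8, 33652523 to 33698163), glutathione reductase, ranged from 13.7 to 16.1 CPM in QSCs (median 14.7) and from 64.4 to 111 CPM in ASCs (median 95.7). The lowest ASC library was well above the highest QSC library, and the log2 fold change was 2.64 ± 0.13 SE (6.24-fold, adjusted p = 8.38e-09 by edgeR). *Gss*, glutathione synthetase, went from 12–18.2 CPM to 30.2–43.4 CPM (log2 fold change 1.36 ± 0.13, adjusted p = 2.52e-06), again without overlap. The subunits of glutamate-cysteine ligase, which catalyses the first and rate-limiting step, moved far less. *Gclm*, its modifier subunit, had a log2 fold change of 0.44 ± 0.11 (18.7–26.6 CPM in QSCs, 25–31.6 CPM in ASCs, adjusted p = 0.00383). *Gclc*, its catalytic subunit, had one of 0.36 ± 0.13 (45.4–77.6 CPM in QSCs, 51.4–83.1 CPM in ASCs, adjusted p = 0.0275). In both subunits the states overlapped. The call of *Gclc* was lost without Gli3+/+ QSC replicate 1 (adjusted p = 0.067), Gli3Δ/Δ QSC replicate 3 (adjusted p = 0.0572), ASC library 3 (adjusted p = 0.0506) or ASC library 5 (adjusted p = 0.0634), and against Gli3+/+ QSCs only (0.15, adjusted p = 0.51). The *Gclm* transcripts overlap the exons of *Gm6061* on the same strand, so their counts may hold reads of both.

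The glutathione peroxidases moved in opposite directions. *Gpx3* fell from between 2999 and 3634 CPM in QSCs (median 3331) to between 40.4 and 134 CPM in ASCs (median 94.4). Its log2 fold change of −5.16 ± 0.29 SE (a 35.8-fold lower level, adjusted p = 2.37e-08 by edgeR) was the lowest fitted value of the 51 members. The level was low in each of the 6 ASC libraries, and the highest of them was ASC library 6. There the markers of several other cell types were the highest of the ASC libraries, and their part in its *Gpx3* level was not tested. *Gpx1* (ENSMUSG00000063856.7, chromosome 9, 108338903 to 108340343), the cytosolic and mitochondrial enzyme, went the other way. It ranged from 20.3 to 32.6 CPM in QSCs (median 28.8) and from 185 to 311 CPM in ASCs (median 203), a log2 fold change of 2.97 ± 0.15 (adjusted p = 1.03e-08). Its highest value was again in ASC library 6, without which the log2 fold change was 2.81 (adjusted p = 7.35e-10). *Gpx8*, an enzyme of the endoplasmic reticulum, rose from 17.7–28 to 42.7–71.8 CPM (1.33 ± 0.15, adjusted p = 7.55e-06). *Gpx4*, which reduces phospholipid hydroperoxides and protects against ferroptosis, rose by a smaller step, from 58.6–73 to 82.6–105 CPM (0.49 ± 0.08, adjusted p = 0.000156), still with no overlap between the states. *Gpx7* (log2 fold change 0.08 ± 0.17, adjusted p = 0.71) and *Gpx2*, at or below 0.256 CPM in every library, did not pass the test. Of the 7 selenoprotein members, 3 rose (*Gpx1*, *Gpx4*, *Txnrd1*), *Gpx3* fell and *Gpx2*, *Txnrd2* and *Txnrd3* did not pass the test.

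**Figure D2:**
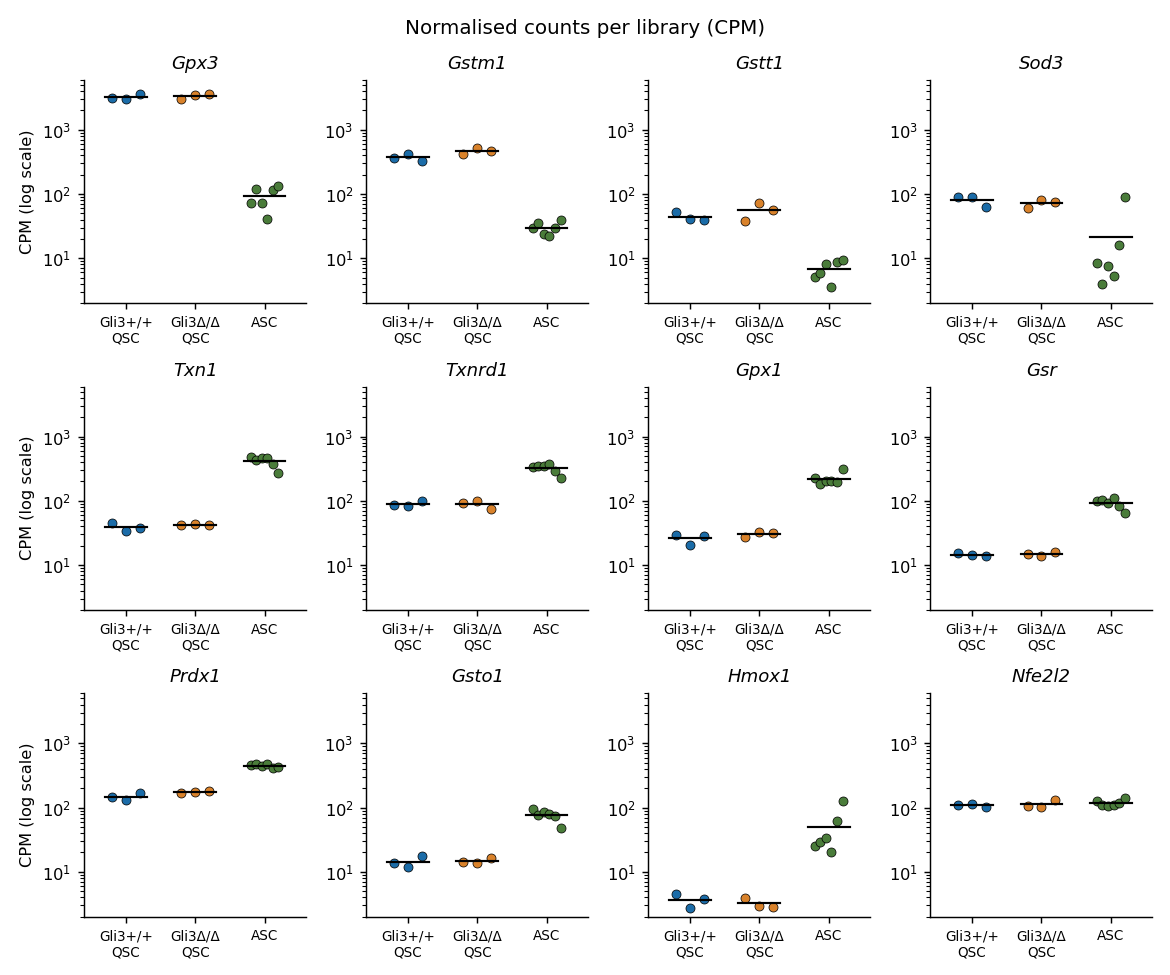
Level of 12 members in each library (points, CPM on a log scale) for Gli3+/+ QSCs, Gli3Δ/Δ QSCs and the 6 ASC libraries, with the group mean as a bar. *Gpx3*, *Gstm1* and *Gstt1* are lower in every ASC library than in any QSC library, *Txn1*, *Txnrd1*, *Gpx1*, *Gsr*, *Prdx1*, *Gsto1* and *Hmox1* are higher, *Sod3* overlaps only through ASC library 6 at 88.9 CPM, and *Nfe2l2* shows no separation.

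The 21 glutathione S-transferases, which join glutathione to electrophiles, moved in both directions. Of these, 5 rose, 9 fell and 7 did not pass the test, with a median log2 fold change of −0.38. Of the 5 that rose, *Gsta1*, *Gsta2* and *Gstp3* had 2, 5 and 3 counts over all QSC libraries. As the deposited table kept genes with enough reads in at least 2 samples, such genes are in it through the ASC libraries, where they are higher, and these counts are a description only. Of the 14 S-transferases with a mean of at least 1 CPM in either state, 2 rose, 7 fell and 5 did not pass the test. The 7 Gstm genes, which encode the mu class, lie within 149 kb on chromosome 3 (107895821 to 108044894), and 5 of them fell. Of these, *Gstm3* was called only at very low counts. *Gstm1* (ENSMUSG00000058135.12, chromosome 3, 108012255 to 108017973) ranged from 331 to 512 CPM in QSCs (median 416) and from 22.5 to 38.8 CPM in ASCs (median 29.7). This was a 13.8-fold lower level (log2 fold change −3.79 ± 0.15 SE, adjusted p = 2.95e-09), with every ASC library far below every QSC library. *Gstm2* went from 51.9–98.8 to 7.75–19.9 CPM (−2.51 ± 0.22, adjusted p = 9.93e-07). *Gstm7* went from 5.33–8.42 to 0.0531–1.22 CPM (−3.78 ± 0.53, adjusted p = 5.22e-05). *Gstm6* went from 2.82–5.12 to 0.0481–1.09 CPM (−3.16 ± 0.61, adjusted p = 0.00069). *Gstm3* was close to the limit of detection, with 28 counts over the 6 QSC libraries and 0 in every ASC library. It is in the table through the QSC libraries, where it is higher, and these counts are a description only. Set against a floor of 3 counts over the ASC group, its mean QSC level was 7.18-fold higher. The other two members of the same cluster did not pass the test: *Gstm5* was at 16.2–24.4 CPM in QSCs and 14.6–21 CPM in ASCs (−0.18 ± 0.12, adjusted p = 0.20), and *Gstm4* was at 2.68–7.83 and 4.76–8.13 CPM (0.38 ± 0.20, adjusted p = 0.11). Against 1 QSC genotype alone each passed once, *Gstm5* against Gli3Δ/Δ QSCs (−0.40, adjusted p = 0.04996) and *Gstm4* against Gli3+/+ QSCs (0.77, adjusted p = 0.0342).

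Of the 4 theta class genes 2 fell in ASCs, as did the only kappa class gene. *Gstt1* ranged from 38.4 to 73.5 CPM in QSCs (median 46.4) and from 3.53 to 9.51 CPM in ASCs (median 7.03), a log2 fold change of −2.86 ± 0.25 (adjusted p = 1.01e-06 by edgeR). *Gstt3* fell from 8.66–22.1 to 2.55–7.17 CPM (−1.89 ± 0.33, adjusted p = 0.00029), and its exons overlap those of *Gm20441* on the same strand. *Gstk1*, the mitochondrial and peroxisomal kappa enzyme, fell from 10–14.7 to 3.03–5.59 CPM (−1.48 ± 0.19, adjusted p = 2.44e-05). In these 3 genes the states did not overlap. *Gstt2* (−0.38 ± 0.23, adjusted p = 0.17) and *Gstt4*, at or below 0.168 CPM, did not pass the test. Without ASC library 6, *Gstt2* passed it (−0.58, adjusted p = 0.0218).

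Of the 5 pi and omega class genes, *Gstp1* and *Gsto1* rose, and *Gstp3* was called higher at few counts. *Gstp1* (ENSMUSG00000060803.5, chromosome 19, 4035407 to 4037985), the main pi class enzyme, rose from 55.8–85.1 CPM (median 59.8) to 135–202 CPM (median 179), a log2 fold change of 1.43 ± 0.13 (adjusted p = 1.6e-06 by edgeR). *Gsto1*, an omega class enzyme with glutaredoxin-like chemistry, rose from 12–17.4 to 48.7–94 CPM (2.38 ± 0.16, adjusted p = 7.31e-08). Both were above every QSC library in all 6 ASC libraries. *Gstp3*, beside *Gstp1* on chromosome 19, had 3 counts over the QSC libraries and 169 over the ASC libraries, and was called. *Gstp2* was at 5.52–31.1 CPM in QSCs and 12.4–27.4 CPM in ASCs and did not pass the test (0.50 ± 0.24, adjusted p = 0.095). It passed against Gli3+/+ QSCs only (1.33, adjusted p = 0.0087), without Gli3+/+ QSC replicate 3 (adjusted p = 0.0269) and without ASC library 5 (adjusted p = 0.0402). *Gsto2* was scarce, at 0.374–0.824 and 0.255–0.537 CPM, and did not pass the test either (−0.27 ± 0.29, adjusted p = 0.44). The alpha class was sparse. *Gsta1* had 2 counts over the QSC libraries and 77 over the ASC libraries, *Gsta2* had 5 and 18, and *Gsta3* had 139 and 38, and all 3 were called at these low counts. The call of *Gsta3* (adjusted p = 0.0202) was lost without Gli3+/+ QSC replicate 2 (adjusted p = 0.051) or Gli3Δ/Δ QSC replicate 2 (adjusted p = 0.0501), and against either QSC genotype alone (adjusted p = 0.0764 for Gli3+/+ and 0.062 for Gli3Δ/Δ). *Gsta2* (adjusted p = 0.0344) lost its call without any 1 of 8 libraries, at an adjusted p between 0.0552 and 0.0737. It was also not called by DESeq2 (adjusted p = 0.0578), by limma-voom (1.47, adjusted p = 0.149) or against Gli3+/+ QSCs only (1.04, adjusted p = 0.49). The most abundant alpha gene, *Gsta4*, which acts on lipid peroxidation products, was at 4.64–11.1 CPM in QSCs and 1.9–7.71 CPM in ASCs (−0.56 ± 0.28, adjusted p = 0.11). It passed with limma-voom (−0.70, adjusted p = 0.0423), without ASC library 3 (−0.73, adjusted p = 0.0422) and against Gli3+/+ QSCs only (−1.05, adjusted p = 0.0373), whereas against Gli3Δ/Δ QSCs only its log2 fold change was −0.07.

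Taken as a make-up, the S-transferase RNA of the cells had another leading gene in each state. *Gstm1* took 55.1% to 63.6% of the summed CPM per kb of the 21 genes in QSC libraries and 6.34% to 13.6% in ASC libraries. *Gstp1* took 8.01% to 9.46% in QSCs and 44.9% to 54% in ASCs, and *Gsto1* went from 1.18–2.11% to 12.4–18.7%. The sum itself was 408 to 581 CPM per kb in QSCs and 194 to 256 CPM per kb in ASCs. The shares are parts of 1 sum, so that a fall of *Gstm1* alone raises the shares of the rest.

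**Figure D3:**
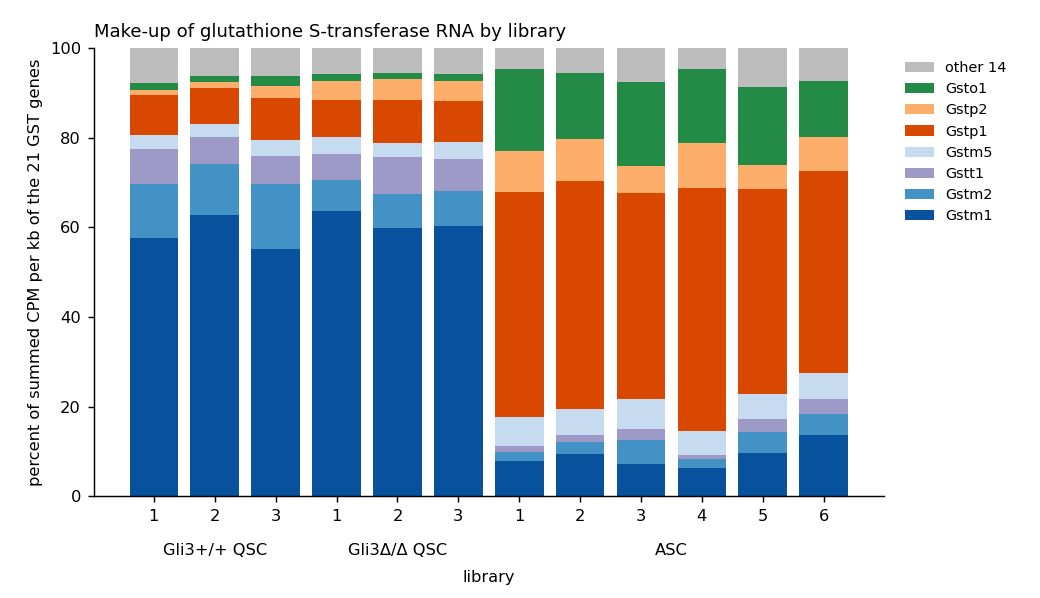
Share of each glutathione S-transferase gene (stacked bars, percent) in the summed CPM per kb of the 21 genes, for each of the 12 libraries. *Gstm1* (dark blue) makes up 55.1% to 63.6% of each QSC bar, and *Gstp1* (dark orange) 44.9% to 54% of each ASC bar.

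The thioredoxin system rose in its cytosolic arm. *Txn1* (ENSMUSG00000028367.5, chromosome 4, 57943373 to 57956411), cytosolic thioredoxin, ranged from 33.8 to 44.3 CPM in QSCs (median 41.5) and from 275 to 476 CPM in ASCs (median 446). The 10.3-fold higher level (log2 fold change 3.36 ± 0.15 SE, adjusted p = 4e-09 by edgeR) was seen in every ASC library, the lowest being ASC library 6. *Txnrd1* (ENSMUSG00000020250.10, chromosome 10, 82833951 to 82897712), the cytosolic reductase of thioredoxin, rose from 75.2–98.1 CPM (median 88.4) to 226–374 CPM (median 342), a log2 fold change of 1.86 ± 0.13 (adjusted p = 1.22e-07). *Txn2* had a log2 fold change of 0.39 ± 0.10 (62.7–91.5 CPM in QSCs, 86.3–110 CPM in ASCs, adjusted p = 0.00487), and *Txnrd2* one of 0.33 ± 0.14 (11–14.9 and 11.8–19.9 CPM, adjusted p = 0.062). Both are mitochondrial, and *Txnrd2* passed with DESeq2 (adjusted p = 0.0421) and without ASC library 5 (0.41, adjusted p = 0.0154). *Txnrd3*, a reductase best known from testis, was at 13.6–21.4 and 14.2–26.4 CPM and passed only without ASC library 6 (0.33, adjusted p = 0.12 over all libraries, 0.40, adjusted p = 0.0291 without it). The difference between the cytosolic and mitochondrial genes was not itself tested.

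The 6 peroxiredoxins, the peroxidases that thioredoxin recycles, rose without exception, each with no overlap between the states. *Prdx2* (60.7–95.1 to 205–264 CPM) and the mitochondrial *Prdx3* (31.6–41.7 to 80.3–143 CPM) had log2 fold changes of 1.62 ± 0.10 and 1.62 ± 0.15. *Prdx1* (ENSMUSG00000028691.12, chromosome 4, 116685544 to 116700822) was the most abundant, at 131–183 CPM in QSCs (median 168) and 417–478 CPM in ASCs (median 457), and its log2 fold change was 1.49 ± 0.09 (adjusted p = 2.84e-08 by edgeR). *Prdx5* followed at 1.22 ± 0.12 (34.9–53.4 to 88.2–119 CPM). *Prdx4*, the peroxiredoxin of the endoplasmic reticulum, had 1.06 ± 0.09 (26.4–32.6 to 53.8–74.4 CPM), and *Prdx6*, which uses glutathione rather than thioredoxin, had 1.05 ± 0.12 (83.8–108 to 160–246 CPM). The largest adjusted p of the 6 was 8.24e-06, for *Prdx6*. Their fold changes thus spanned a narrow range compared with the S-transferases. *Srxn1*, sulfiredoxin, which rescues over-oxidised peroxiredoxins, did not pass the test (0.69 ± 0.44, adjusted p = 0.20). Its level was 36.2 to 68.9 CPM in ASCs and 14.5 to 18.4 CPM in 5 QSC libraries, but 134 CPM in Gli3+/+ QSC replicate 3. Without that library the log2 fold change was 1.56 (adjusted p = 1.12e-05). With all libraries it passed with limma-voom (1.06, adjusted p = 0.0489).

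Of the enzymes that act on superoxide and on bulk hydrogen peroxide, 1 rose and 1 fell. *Sod2*, the manganese enzyme of mitochondria, rose from 39.5–53.8 to 76.4–106 CPM (log2 fold change 1.06 ± 0.11 SE, adjusted p = 2.69e-06 by edgeR). *Sod1*, the cytosolic copper-zinc enzyme, was at 128–163 CPM in QSCs and 136–177 CPM in ASCs (0.19 ± 0.09, adjusted p = 0.083). *Cat*, catalase, was at 37–57 and 32.6–64.9 CPM (−0.21 ± 0.16, adjusted p = 0.30), and passed the test only when ASC library 6 was left out (−0.38, adjusted p = 0.0175). Neither gene separated the states. *Sod3* (ENSMUSG00000072941.5, chromosome 5, 52363791 to 52371418), the extracellular enzyme, was at 61.2 to 90.5 CPM in QSCs. In ASC library 1 to 6 it was at 8.36, 4.01, 7.62, 5.2, 16.2 and 88.9 CPM. Thus 5 ASC libraries were below every QSC library, whereas ASC library 6 lay within the range of the QSC libraries. Its log2 fold change was −1.81 ± 0.70 (adjusted p = 0.0397) over all libraries and −3.24 ± 0.31 (adjusted p = 1.22e-06) without ASC library 6. The call of *Sod3* was lost without any 1 of 10 other libraries, at an adjusted p between 0.0504 and 0.0763. It was also lost against either QSC genotype alone (adjusted p = 0.0921 for Gli3+/+ and 0.119 for Gli3Δ/Δ). With all libraries *Sod3* was not called by DESeq2, whereas limma-voom called it lower in ASCs. The macrophage, Schwann cell, mural cell, endothelial and fibro-adipogenic markers of ASC library 6 are given above, and their part in its *Sod3* level was not tested.

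Neither regulator of the system passed the test. *Nfe2l2* ranged from 100.9 to 129 CPM in QSCs (median 108) and from 104 to 140 CPM in ASCs (median 114), and its log2 fold change was 0.10 ± 0.10 (adjusted p = 0.38 by edgeR). *Keap1* was at 37.1–54.1 and 38.6–47.9 CPM (−0.13 ± 0.11, adjusted p = 0.31). These are RNA levels, and NRF2 is controlled largely by degradation of the protein, which was not measured. Of the enzymes best known as NRF2 targets, *Hmox1* (ENSMUSG00000005413.8, chromosome 8, 75093621 to 75100589), which degrades haem, rose the most of the members above 1 CPM, by a log2 fold change of 3.84 ± 0.46 (14.3-fold, adjusted p = 1.26e-05). It was between 2.72 and 4.57 CPM in QSCs, and at 25.5, 29.6, 33.1, 20.1, 60.9 and 128 CPM in ASC library 1 to 6. The summed level of the 8 macrophage markers in the same 6 libraries was 670, 253, 379, 482, 842 and 5256 CPM, against 11 to 29.4 CPM in QSCs. All 8 markers were called higher in ASCs, and none was at 0 in all QSC libraries. Macrophages, which clear haem in injured muscle, are rich in *Hmox1*, and their part in its rise was not tested. Without ASC library 6 the log2 fold change was 3.26 ± 0.27 (adjusted p = 2.8e-07). *Nqo1*, a quinone reductase, remained scarce, at 1.66–2.62 CPM in QSCs and 2.27–6.56 CPM in ASCs (1.02 ± 0.26, adjusted p = 0.00435), with overlapping states.

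A list of 63 other genes of these pathways, 61 of them in the count table, gave 34 called higher in ASCs, 20 called lower and 7 that did not pass the test, with a median log2 fold change of 0.49. This 88.5% share of calls can be set against the 58.9% over all genes and the 67.5% over protein-coding genes, with no test of the difference. Of the protein-coding genes, 39.5% were called higher and 27.9% lower. The enzymes that supply NADPH were among those that rose, with log2 fold changes of 2.05 for *G6pdx*, 2.08 for *Pgd* and 3.24 for *Me1*. The cystine transporter *Slc7a11* rose by 1.47, from a mean of 1.23 to 3.37 CPM. *Txnip*, which binds and inhibits thioredoxin, fell by 4.12 on the log2 scale, from a mean of 1482 CPM in QSCs to 84.1 CPM in ASCs. The metallothioneins *Mt1* and *Mt2*, which bind metals and scavenge radicals, fell by 2.88 and 2.65, and *Maff* and *Mafk*, which encode small MAF partners of NRF2, fell by 3.43 and 3.12.

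Between the genotypes, no member passed the test in QSCs. The question there is whether removal of *Gli3* changes the cells while they are still at rest. Of all genes tested, 88 (0.351%) were called, 47 higher (0.187%) and 41 lower (0.163%) in Gli3Δ/Δ QSCs. Of the 51 members, 0 were called by edgeR and by limma-voom and 2 by DESeq2 (*Gstp2* and *Gsta4*). The lowest adjusted p by edgeR was 0.0754. Without adjustment, 9 of 51 members had a p under 0.05 (17.6%), against 7.11% of all genes. The genotypes did not overlap in 13 of 51 members (25.5%), against 13.1% of all genes. The median log2 fold change was 0.07 over the members and −0.03 over all genes, and the members above 1 CPM lay between −1.85 and 1.64.

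*Gstp2* (ENSMUSG00000038155.10, chromosome 19, 4040285 to 4046023), a pi class gene next to *Gstp1*, had the lowest p. It was at 5.52, 7.13 and 11.9 CPM in Gli3+/+ QSC replicates 1 to 3 and at 21.5, 31.1 and 25.9 CPM in Gli3Δ/Δ QSC replicates 1 to 3. All 3 mutant libraries were above all 3 controls, and the log2 fold change was 1.64 ± 0.29 SE (adjusted p = 0.0754 by edgeR and 1.07e-05 by DESeq2). Without Gli3+/+ QSC replicate 3 it passed the test of edgeR (2.03 ± 0.21, adjusted p = 0.00545). *Gstp1* was at 60.6, 55.8 and 59.1 CPM in controls and at 56.4, 85.1 and 73.7 CPM in mutants (0.26 ± 0.16, adjusted p = 0.85). Both genes had estimated counts that were not whole numbers in all 12 libraries, as is usual where salmon shares reads out among similar transcripts, and which transcripts shared them was not tested. The separate levels are uncertain to that extent. The same limit holds for *Gpx4*, *Gclm*, *Prdx1*, *Sod2* and *Txn2*, whose counts were also not whole in all 12 libraries. It holds in part for *Txn1* (8 libraries) and for *Gstm1*, *Gstm2*, *Gstm3* and *Gstm6* (5 to 7 libraries), among others. Of the 51 members, 30 had whole counts in every library. Gstp-ps (ENSMUSG00000103653.1), a pseudogene of the family and no member, was looked up after these values were seen. It was at 6.84, 4.79 and 3.31 CPM in the controls and at 0, 0.0914 and 0 CPM in the mutants, and was called lower (6 counts over the mutants, 748 over the controls, adjusted p = 0.00608). The summed level of *Gstp2* and Gstp-ps was 12.4, 11.9 and 15.2 CPM in the controls and 21.5, 31.2 and 25.9 CPM in the mutants, still without overlap. The part of Gstp-ps in the *Gstp2* result was not tested. *Gstp2* made up 8.35%, 11.3% and 16.8% of the CPM of the pair in the controls and 27.6%, 26.8% and 26% in the mutants. In ASCs, where genotypes are mixed, this share was 7.73% to 12%.

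*Gsta4* (ENSMUSG00000032348.6, chromosome 9, 78182774 to 78209349) was lower in the mutants. Its levels were 11.1, 9.41 and 9.78 CPM in controls and 4.79, 6.02 and 4.64 CPM in mutants, with no overlap (−1.0 ± 0.19, adjusted p = 0.0892 by edgeR and 0.000156 by DESeq2). Its estimated counts were whole numbers, to within 0.01, in all 12 libraries. *Gstm2* was at 87.4, 85.9 and 98.8 CPM in controls and at 51.9, 74.9 and 67.6 CPM in mutants (−0.52 ± 0.16, adjusted p = 0.44). The other mu class genes above 1 CPM had fitted values in the other direction. *Gstm5* was at 16.9, 16.2 and 18.9 CPM in controls and 21.8, 23.4 and 24.4 CPM in mutants (0.39 ± 0.14, adjusted p = 0.60), and *Gstm4* was at 3.84 ± 1.1 CPM in controls and 6.59 ± 1.1 CPM in mutants (SD, n = 3 each, log2 fold change 0.75 ± 0.25, adjusted p = 0.51). *Gstm1*, the most abundant of them, was at 372 ± 42.5 and 462 ± 48.3 CPM (SD, n = 3 each, 0.28 ± 0.14, adjusted p = 0.77).

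**Figure D4:**
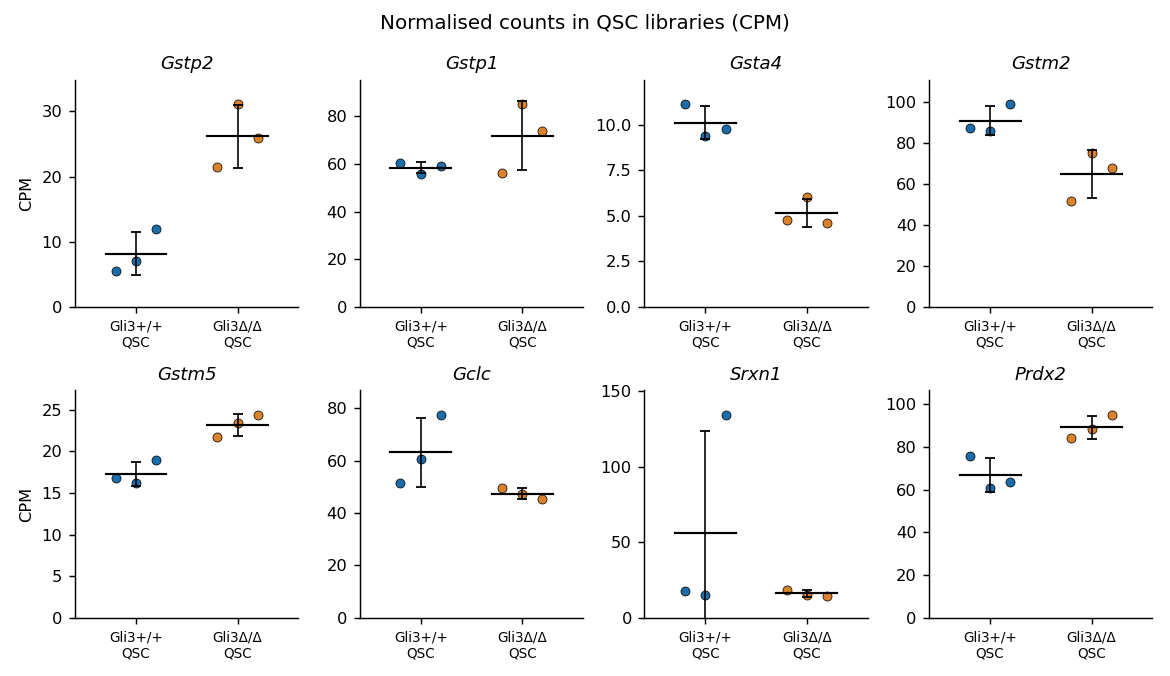
Level of 8 members in each QSC library (points, CPM from 0) by genotype, with the mean and SD of 3 libraries. *Gstp2*, *Gsta4*, *Gstm2*, *Gstm5*, *Gclc* and *Prdx2* do not overlap between genotypes, *Gstp1* does, and the mean of *Srxn1* in Gli3+/+ QSCs is set by 1 library at 134 CPM. None of the 8 passed edgeR's test.

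Outside the S-transferases, 4 members had an unadjusted p under 0.05. *Gclc* was at 51.4, 60.8 and 77.6 CPM in controls and at 49.5, 47.4 and 45.4 CPM in mutants (−0.45 ± 0.17, adjusted p = 0.62 by edgeR). *Prdx2* was at 75.7, 60.7 and 63.7 CPM in controls and at 84.1, 88.2 and 95.1 CPM in mutants (0.39 ± 0.13, adjusted p = 0.53). *Gpx7*, an endoplasmic reticulum peroxidase, was at 10.9 ± 1.31 CPM in controls and 15.5 ± 2.76 CPM in mutants (SD, n = 3 each, 0.48 ± 0.18, adjusted p = 0.61). In all 3 the genotypes did not overlap, and none passed the test. *Srxn1* was at 17.8, 15.3 and 134 CPM in controls and at 18.4, 15.3 and 14.5 CPM in mutants (−1.85 ± 0.75, adjusted p = 0.66). Without Gli3+/+ QSC replicate 3 its log2 fold change was −0.05 ± 0.16 (adjusted p = 0.97). The same library also had the highest QSC levels of *Gclc*, *Gclm* (26.6 against 18.7 to 22.2 CPM) and *Gss* (18.2 against 12 to 16.1 CPM). It was the highest QSC library for 11 members in all and the lowest for 12. Those 12 include *Nqo1* at 1.66 CPM and *Cat* at 37 CPM.

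Some of the most abundant members of their role were close between the genotypes, whereas *Gstm2* and *Prdx2*, given above, did not overlap. *Gpx3* had a log2 fold change of 0.01 ± 0.14, *Txn1* of 0.09 ± 0.14, *Txnrd1* of −0.04 ± 0.15, *Prdx1* of 0.20 ± 0.15 and *Sod1* of 0.10 ± 0.13, with adjusted p between 0.88 and 1.0. *Nfe2l2* had 0.04 ± 0.14, *Keap1* 0.01 ± 0.16, *Gclm* −0.07 ± 0.18, *Nqo1* −0.02 ± 0.28 and *Hmox1* −0.22 ± 0.27. A p that misses the threshold does not show that the levels were equal, and for these genes the errors give the size of difference that could have been missed. Schwann cell markers summed to 68.4 to 97.3 CPM in controls and 32.8 to 49.4 CPM in mutants, the only 1 of the 12 marker lists whose sums did not overlap between the genotypes. Its part in the values of the members was not tested.

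Of the 61 other genes of these pathways in the count table, 1 was called between the genotypes. *Glo1*, glyoxalase, which removes methylglyoxal with the help of glutathione, was at 47.7, 42.8 and 44.8 CPM in controls and at 97.9, 97.8 and 107.6 CPM in mutants. This was a log2 fold change of 1.13 ± 0.12 SE (adjusted p = 0.00612 by edgeR). The call held in DESeq2, in limma-voom and without any 1 of the 6 libraries, with a log2 fold change between 1.08 and 1.16. In ASC library 1 to 6, whose genotypes are not known, *Glo1* was at 105, 124, 51.7, 107, 43.6 and 89.4 CPM. The mice were of mixed genetic background, and its part in the *Glo1* levels was not tested. *Glrx*, glutaredoxin, was at 7.54, 3.66 and 6.09 CPM in controls and at 14.7, 9.35 and 18.3 CPM in mutants, and did not pass the test (1.27, adjusted p = 0.27).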

How the data were processed

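Polyadenylated RNA of the sorted cells was sequenced with a kit that keeps the strand. The authors assigned reads to GENCODE vM19 transcripts (GRCm38) with salmon, summed them to genes with tximport and deposited estimated counts, not normalized, of genes with enough reads in at least 2 samples. Their own comparison tables, of DESeq2 fold changes and p-values, were not used, except for the gene biotype. The 6 QSC columns carry sample titles and the 6 ASC columns only the prefix of that state. For 2 ASC samples the title and the genotype label differ, and ASC genotypes were not compared.

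Estimated counts (36886130 to 65750131 per library, 37.3% of values not whole to within 0.01) were rounded and tested over all 25093 genes with edgeR 4.0.16 in R 4.3.3 (TMM, quasi-likelihood F test, Benjamini-Hochberg). All 12 libraries entered the ASC against QSC fit and the 6 QSC libraries the genotype fit. Genes were called where the adjusted p was under 0.05 and the level differed by at least 1.2-fold. Fold changes are on the log2 scale with SE derived from the F statistic. Alternatives were DESeq2 1.42.0, limma-voom 3.58.1, DESeq2 size factors, filterByExpr, no minimum fold change, the replicate number as a block and leaving out each library. The tests were checked on simulated counts. Exon lengths and positions come from GENCODE vM21 (GRCm38), where 96.3% of gene identifiers have the same version, and promoters from RefSeq (GRCm38.p6). Floors cover counting error only. In the text, levels, by library or as ranges, are given for members called in a comparison, the 3 most abundant of each role, those with an unadjusted p under 0.05 between genotypes, and 8 regulators and NRF2 targets. Members, lists and tests were chosen with earlier results of these data known.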

Additional observations from a re-analysis of the deposited data

Results flagged for a closer look

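The members were screened for a single library far from the rest among the 6 ASC libraries, by the gap to the nearest other library as a share of the whole range (Dixon's test). Chance marks about 1 in 20 such groups, and 4 of 51 members were marked. In ASC library 6, *Sod3* was at 88.9 CPM against 4.01 to 16.2 CPM in the other 5 (share 0.856), *Gpx1* at 311 against 185 to 223 CPM (0.703) and *Gpx7* at 20.4 against 10.9 to 14.3 CPM (0.637). In ASC library 5, *Gstt3* was at 7.17 against 2.55 to 4.25 CPM (0.632). Of the ASC libraries, ASC library 6 also had the highest summed markers of macrophages and of Schwann, mural, endothelial and fibro-adipogenic cells. The part of those cells in these levels was not tested. Groups of 3 QSC libraries are too small for the same screen, which therefore does not cover the 134 CPM of *Srxn1* in Gli3+/+ QSC replicate 3.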

How the results depend on the processing

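Between ASCs and QSCs, 35 members were called, and between 32 and 38 when 1 library was left out (13648 to 15236 of all genes), so the count did not hang on 1 library. Between genotypes, 0 members and 88 genes were called by edgeR. DESeq2 called 2 members and 384 genes and limma-voom 0 and 57. Leaving out 1 QSC library gave 0 to 1 members (1 without Gli3+/+ QSC replicate 3) and 58 to 103 genes, the lowest without Gli3Δ/Δ QSC replicate 3. Between QSC replicates of the 2 genotypes, same-number correlations were −0.276, −0.021 and −0.066, and different-number ones ran from −0.24 to 0.329. With 3 libraries a genotype these values cannot decide whether the numbers pair the samples. With the number as a replicate block 0 members and 79 genes were called. With DESeq2 size factors 90 genes, and with filterByExpr 85 of the genes kept, were called. Without the minimum fold change the genotype count stayed at 88.

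Changes of sign were seen only in values that did not pass the test. Between genotypes, *Keap1* turned to −0.0099 with limma-voom and to −0.01 with the replicate block, and *Nqo1* to 0.0012 with limma-voom. When 1 QSC library was left out, *Keap1* ranged from −0.078 to 0.16, *Nqo1* from −0.14 to 0.17, *Gclm* from −0.16 to 0.14 (above 0 without Gli3+/+ QSC replicate 3), *Txnrd1* from −0.11 to 0.062 and *Nfe2l2* from −0.076 to 0.11. Between states, chosen after the data were seen, ASCs were also compared with 1 QSC genotype at a time. Against Gli3Δ/Δ QSCs only, *Gstp2* (−0.34), *Gstm4* (−0.015) and *Gpx7* (−0.18) changed sign, and against Gli3+/+ QSCs only *Gstm5* (0.023) and *Srxn1* (−0.21). *Gpx7* ranged from −0.10 (without ASC library 6) to 0.17 when 1 library was left out. Of the 45 genes that the rule named between the states, 34 kept their direction and their side of the threshold in every alternative. The cause of these changes was not tested. With 3 libraries a genotype, small fold changes and members with few counts cannot be resolved.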
